A study of Mus musculus with 9 samples.

Results

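Intracerebral hemorrhage (ICH) with vehicle was compared with sham operation on day 3, for the genes outside the complement system. The ICH mice had whole blood of their own injected into the basal ganglia and were afterwards given the vehicle of Laminaria, an agent tested in another group of the series. The sham mice had the needle inserted and no blood injected, so that both groups carried the needle wound. Only the ICH group is labelled as given the vehicle, so blood and vehicle cannot be told apart. The labels give all mice as wildtype and the samples as brain tissue of the basal ganglia, and the methods of the study describe adult male C57BL animals and tissue at the edge of the hematoma. Injected blood models the mass and the breakdown of a clot and not the rupture of a vessel. There were 3 ICH libraries and 3 sham libraries of bulk RNA. The genes were chosen by level, as all those with a mean of at least 0.5 FPKM (fragments per kilobase of transcript, scaled to library size) over the 6 libraries. This rule kept 16414 of the 55401 genes in the deposited table, and setting aside 33 complement genes left 16381.

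Red cells that leave the circulation break down over days and set free hemoglobin, heme and iron, which microglia and incoming macrophages take up and detoxify. Neutrophils and monocytes enter from the blood, astrocytes around the lesion swell and divide, and new matrix is laid down at its border. The basal ganglia are built mainly of striatal projection neurons, inhibitory cells that receive glutamate from the cortex and dopamine from the midbrain.

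Levels are given as CPM, counts scaled to a common library size by the TMM method, always in the order of libraries 1, 2 and 3. Log2 fold changes, their standard errors and adjusted p-values are from edgeR's quasi-likelihood test with Benjamini-Hochberg adjustment over all 16414 genes, and a positive value means higher in ICH. A gene is said to have risen or fallen only at an adjusted p under 0.05. Total counts were 55701314 to 74649716 per library, and mitochondrially encoded genes took 6.01% to 7.32% of them. The leading principal component held 55.0% of the variance, with the ICH libraries at 20.7, 65.2 and 54.7 and the sham libraries at -55.7, -55.3 and -29.7, so that ICH 1 and sham 3 lay nearest to each other. Neither labels nor methods state that each library came from its own mouse, and p-values therefore speak of how these libraries scattered, which may be technical.

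Outside complement, 1202 genes rose and 518 fell. Over all 16414 genes tested, 10.6% were called, 7.42% higher and 3.16% lower. The rises were the larger, and the median log2 fold change was 1.37 for them and -0.56 for the falls, against 0.01 over all genes. More than 2-fold rises were found for 804 genes and more than 2-fold falls for 35, and more than 4-fold for 336 and 4. Summed over the libraries of a group, the genes that rose took 7.17% of the counts of all tested genes in ICH and 2.92% in sham. The genes that fell took 5.85% in ICH and 8.46% in sham. For each of these 1720 genes the ICH libraries lay wholly above or wholly below the sham libraries, as they did, above, for 20.2% and, below, for 15.9% of all genes tested. DESeq2 called 2051 of the 16414 genes higher and 1496 lower. With limma on log2(FPKM + 1) 1155 were higher and 275 lower, so the balance between rises and falls depends on the tool. The DESeq2 calls given for lists below are to be read against these larger DESeq2 numbers and not against the edgeR percentages. The edgeR calls depended on single libraries. Without sham 1, ICH 2 or ICH 3 edgeR called 0 genes (3762 to 4092 were at an unadjusted p under 0.05). Leaving out sham 2 left 1 call in each direction. Without sham 3 it called 428 higher and 44 lower, and without ICH 1 1731 higher and 1010 lower. DESeq2 on the same subsets of 5 libraries called 1470 to 2618 higher and 1037 to 2267 lower. In a bulk sample, more cells of a type cannot be told apart from more RNA per cell, which holds for every group of genes below.

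**Figure D1:**
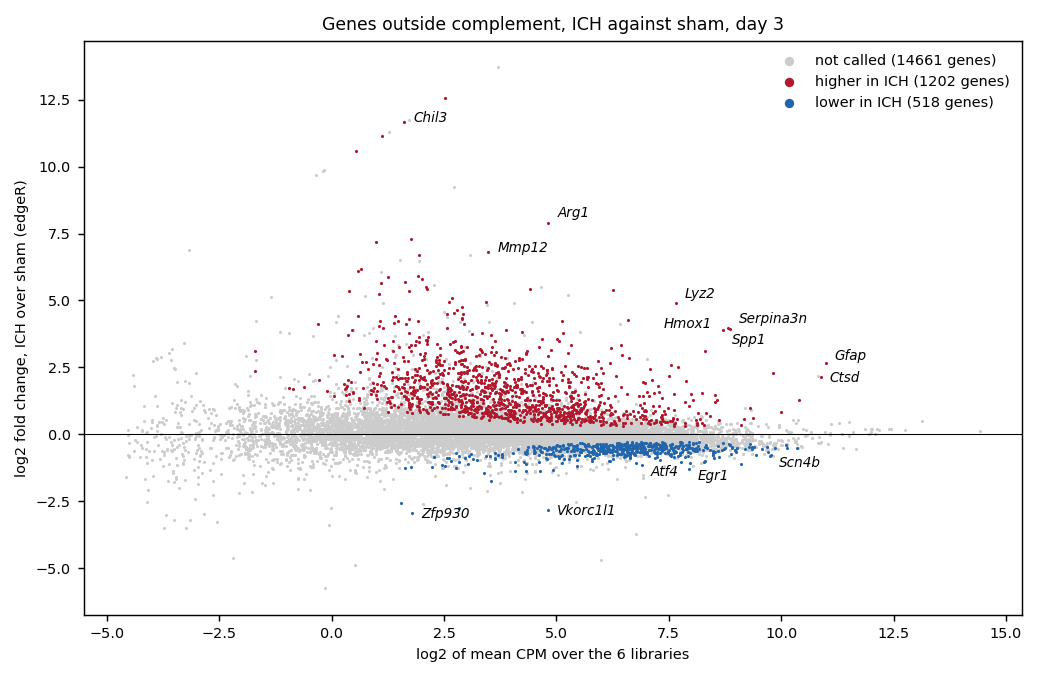
Log2 fold change of ICH over sham (vertical axis) against the log2 of the mean CPM over the 6 libraries (horizontal axis), 1 point per tested gene outside complement. The 1202 genes higher in ICH (red) spread far upward, whereas the 518 lower in ICH (blue) mostly lie close below 0. The points at the top have no or almost no counts in sham, and their fitted values are not bounds.

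Genes of heme breakdown and iron storage were among those that rose. Hmox1, the inducible heme oxygenase that opens the heme ring and frees its iron, was at 654, 1088 and 809 CPM in ICH, against 7.78, 31.6 and 123 CPM in sham (log2 fold change 3.97, standard error 0.95, adjusted p = 0.0462). Relative to their level, the sham libraries differed among themselves far more than the ICH libraries did, and sham 3 was the only sham library above 100 CPM. Hp, haptoglobin, which binds free hemoglobin, was at 1.26, 8.14 and 2.79 CPM in ICH, against 0.582, 0.516 and 0.633 CPM in sham (log2 fold change 2.81, standard error 0.68, adjusted p = 0.0477), and Blvrb, a biliverdin reductase, rose with a log2 fold change of 0.69. These were the 3 of 11 tested genes of heme breakdown and hemoglobin uptake that rose. The constitutive oxygenase Hmox2 was at 82.5, 47.6 and 46.7 CPM in ICH, against 93.6, 49.4 and 59.7 CPM in sham. Cd163, the macrophage receptor for haptoglobin bound to hemoglobin, was at 2.01, 2.81 and 3.63 CPM in ICH, against 3.92, 3.96 and 2.95 CPM in sham, low in both groups and overlapping between them (adjusted p = 0.442). Flvcr1, a heme exporter, had a log2 fold change of 0.71 that did not pass (adjusted p = 0.283).

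Of 16 tested genes of iron handling 7 rose and none fell. Slc11a1, which pumps iron out of the phagosome of macrophages, was at 23.7, 36.2 and 33.9 CPM in ICH, against 2.88, 4.26 and 6.58 CPM in sham (log2 fold change 2.77, standard error 0.33, adjusted p = 0.0214). Ftl1, the light chain of the iron store ferritin, was at 1078, 1704 and 1695 CPM in ICH, against 216, 250.5 and 457 CPM in sham (log2 fold change 2.28, standard error 0.33, adjusted p = 0.0226), and every ICH library held more than 2 times the highest sham level. The heavy chain Fth1 was at 3506, 4411 and 2198 CPM in ICH, against 2662, 2321 and 2401 CPM in sham, with overlapping groups. Export genes rose too. Slc40a1, ferroportin, the iron exporter of the cell membrane, was at 27.1, 24.7 and 31.7 CPM in ICH, against 7.69, 7.77 and 10.4 CPM in sham (log2 fold change 1.69). Cp, ceruloplasmin, which oxidizes the exported iron, was at 25.9, 54.8 and 32.5 CPM in ICH, against 12.3, 11.4 and 9.79 CPM in sham (log2 fold change 1.76). The ferrireductases Cybrd1 and Steap3 rose with log2 fold changes of 1.72 and 1.296, and Trf, transferrin, with 0.83. Tfrc, the receptor that brings transferrin into the cell, was at 73.8, 46.3 and 46.5 CPM in ICH, against 58.7, 66.03 and 48.5 CPM in sham and overlapped between the groups.

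Of 15 Nrf2 targets, genes of oxidative defence, 6 rose. Osgin1, a growth inhibitor, was at 2.66, 3.21 and 3.04 CPM in ICH, against 0.61, 0.316 and 0.695 CPM in sham (log2 fold change 2.45, standard error 0.34, adjusted p = 0.0222). It was followed by Prdx1, a peroxiredoxin (1.05), Slc7a11, the cystine importer (0.88), and Gclm, which modifies glutathione synthesis (0.54). Gclc, the catalytic partner of Gclm, was at 71.5, 70.1 and 67.6 CPM in ICH, against 75.1, 79.04 and 72.99 CPM in sham and did not pass (adjusted p = 0.348). The metal-binding metallothioneins Mt1, Mt2 and Mt3 rose with log2 fold changes of 1.23, 1.51 and 0.698, and Mt2 was at 198, 575 and 357 CPM in ICH, against 138, 109.6 and 149 CPM in sham. Slc30a3, which loads zinc into synaptic vesicles, had -0.35 (adjusted p = 0.174). The globin genes themselves, which red cell precursors and reticulocytes carry, were above sham in all ICH libraries and did not pass the test. Hba-a1 was at 9.65, 40.8 and 8.86 CPM in ICH, against 3.83, 2.88 and 4.804 CPM in sham (adjusted p = 0.0622), and ICH 2 stood far above the other libraries. Hba-a2, Hbb-bt and Hbb-bs had log2 fold changes of 2.29, 2.34 and 2.19. None of the 4 passed with edgeR, while all 4 had an unadjusted p under 0.05 and DESeq2 called 4 higher. The 2 alpha genes are near-identical and may share reads.

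**Figure D2:**
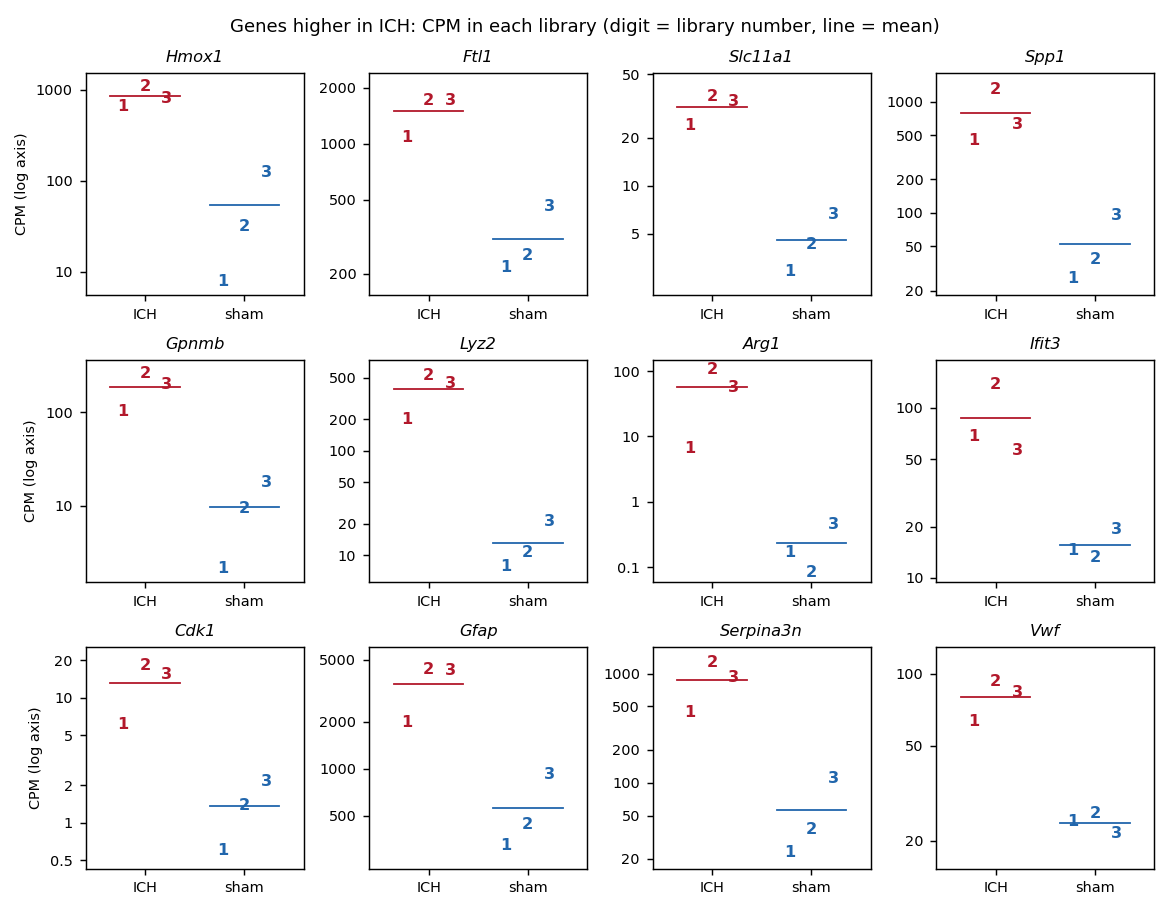
CPM on a logarithmic axis in each library for 12 genes that rose, with ICH left and sham right, the digit giving the library number and the line the group mean. ICH 2 is highest in each panel, ICH 1 is lowest in all panels but that of Ifit3, and sham 3 is the highest sham library in all panels but that of Vwf.

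Many chemokines and cytokines were scarce in sham, and ICH 2 was the highest library for 46 of 57 tested genes of chemokines, cytokines and their receptors and signalling. Because the level filter is a mean over both groups, a gene near 0 in sham was tested only where it was high in ICH. The filter itself therefore favours rises in the counts given for lists that hold such genes. Those of chemokines, leukocytes, macrophages, growth factors, C-type lectin receptors, coagulation and matrix proteases do. Of 13 tested CC chemokines, attractants of monocytes and T cells, 5 rose (Ccl7, Ccl12, Ccl3, Ccl6 and Ccl9). Ccl7, a monocyte attractant, was at 2.35, 12.8 and 3.07 CPM in ICH, against 0.09704, 0.117 and 0.139 CPM in sham (log2 fold change 5.67, standard error 0.83, adjusted p = 0.0226). Ccl2, the main ligand of the monocyte receptor Ccr2, was at 12.1, 70.8 and 13.5 CPM in ICH, against 0, 0.483 and 2.72 CPM in sham, with sham 3 well above the other sham libraries. It did not pass (log2 fold change 4.92, adjusted p = 0.0751). Ccl5, an attractant of T cells, had 3.89 and did not pass (adjusted p = 0.0566). Each sequenced fragment added several counts in this table, and Ccl8 had about 31 fragments in ICH and 2 in sham, a ratio of 15.6 (95% exact interval 3.97 to 134.7, for counting error only). Of 9 tested CXC and other chemokines Cxcl5, Pf4 and Cxcl16 rose. Cxcl16, a membrane-bound chemokine of macrophages, was at 10.9, 25.8 and 17.5 CPM in ICH, against 1.899, 1.797 and 2.38 CPM in sham (log2 fold change 3.16, standard error 0.34, adjusted p = 0.0214). Cxcl10, induced by interferons, was at 18.7, 189.8 and 13.9 CPM in ICH, against 1.33, 0.549 and 4.14 CPM in sham. Cxcl1, a neutrophil attractant, was at 0.413, 61.7 and 1.74 CPM in ICH, against 0.319, 1.18 and 0.742 CPM in sham. Neither passed (adjusted p = 0.0542 and 0.134), and the level in ICH 2 was many times that in ICH 1 and ICH 3. Cxcl2, of the same kind as Cxcl1, was at 0.359, 16.4 and 0.389 CPM in ICH, against 0, 0 and 0.185 CPM in sham, a ratio of 115.9 (39.3 to 564.5) that did not pass (adjusted p = 0.0946). Of 6 tested chemokine receptors Ccr1 rose and was at 1.58, 10.8 and 7.096 CPM in ICH, against 0.263, 0 and 0.201 CPM in sham (log2 fold change 5.34, standard error 1.09, adjusted p = 0.0331), as did Cxcr4 (2.78) and the microglial receptor Cx3cr1 (1.57).

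Interleukin-1 genes were uneven in the same way. Il1b was at 0.665, 26.4 and 1.603 CPM in ICH, against 0.222, 0.0666 and 0.309 CPM in sham (log2 fold change 5.56, adjusted p = 0.0694), which did not pass. Of 12 tested members of the group 5 rose, namely Il1a (3.12), Casp1, the protease that matures interleukin-1 beta (2.79), its adaptor Pycard (2.01), the pore former Gsdmd (1.63) and the receptor Il1r1 (1.52). The decoy receptor Il1r2 had 2.55 and did not pass (adjusted p = 0.129). Tnf was at 0.521, 11.1 and 1.198 CPM in ICH, against 0, 0.133 and 0.293 CPM in sham and did not pass (adjusted p = 0.0847). Its receptor Tnfrsf1a was at 48.2, 105 and 82.6 CPM in ICH, against 16.9, 14.4 and 23.7 CPM in sham (log2 fold change 2.098, standard error 0.32, adjusted p = 0.0226). The other receptor, Tnfrsf1b, rose by 2.36 on the log2 scale, and so did the NF-kappaB subunits Nfkb2 and Relb (1.77 and 0.96). Tnfaip2 and Birc3, targets of NF-kappaB, had 2.93 and 2.12 and did not pass (adjusted p = 0.0699 and 0.0536). Of the family of interleukin-6, Socs3, a feedback inhibitor of its signal, was at 17.8, 91.2 and 32.3 CPM in ICH, against 1.57, 3.59 and 6.87 CPM in sham (log2 fold change 3.56, standard error 0.78, adjusted p = 0.038). Osmr and Clcf1, a receptor and a ligand, rose by 1.86 and 2.37 on the log2 scale. Lif, another ligand, had 2.28 and did not pass (adjusted p = 0.102). Il6 itself lay under the level filter, at 0.162, 3.49 and 0 CPM in ICH, against 0.222, 0 and 0.0618 CPM in sham.

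Among growth factors 8 of 22 rose. Spp1, osteopontin, a secreted ligand of integrins, was at 444, 1290 and 627 CPM in ICH, against 25.5, 38 and 94.1 CPM in sham (log2 fold change 3.91, standard error 0.64, adjusted p = 0.0226). Tgfb1 (2.01), Igf1 (1.695), Grn, progranulin of the lysosome (2.02), and Csf1, which keeps microglia alive (1.31), rose as well. Igf2 was at 100.2, 86.1 and 105 CPM in ICH, against 22.04, 16.2 and 22.3 CPM in sham (log2 fold change 2.27, standard error 0.16, adjusted p = 0.0204). The choroid plexus and the meninges are rich in Igf2, and choroid plexus genes varied within both groups. The choroid plexus gene Ttr was at 4748, 1736 and 2377 CPM in ICH, against 664, 88.2 and 1222 CPM in sham, and the part of such tissue in the rise of Igf2 was not tested. Csf3, which calls out neutrophils, had counts in ICH 2 alone, at 19.7 CPM, and 0 in the other 5 libraries. Fgf2 had a log2 fold change of 2.09 and did not pass (adjusted p = 0.328). Vegfa, the vessel growth factor, was at 56.4, 40.8 and 42.9 CPM in ICH, against 62.1, 64.05 and 59.1 CPM in sham and did not pass (adjusted p = 0.109). Of 10 tested genes of eicosanoid signalling 6 rose, led by Alox5ap and Ltc4s of the leukotriene route (2.83 and 1.69), the thromboxane synthase Tbxas1 (2.57) and the prostaglandin D synthase of blood cells, Hpgds (1.75). Ptgs2, the inducible cyclooxygenase, was at 2.299, 14.6 and 3.33 CPM in ICH, against 1.497, 3.79 and 1.99 CPM in sham, with overlapping groups.

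Many of the rises were in genes of microglia and macrophages. Of 12 genes shared by all myeloid cells 11 rose, Coro1a being the exception (adjusted p = 0.0579), Cd52 and Ptprc leading (2.99 and 2.64), and their summed level was 879, 1686 and 1605 CPM in ICH, against 336, 367 and 542 CPM in sham. The general markers rose together with most receptor and lysosomal genes below, and the part of myeloid cell number in those changes was not tested. All 9 genes listed as Fc gamma receptors, which bind antibody-coated particles, or as signalling chains rose. Fcgr4 was at 9.39, 20.9 and 12.2 CPM in ICH, against 0.263, 0.549 and 1.36 CPM in sham (log2 fold change 4.29, standard error 0.65, adjusted p = 0.0226). Fcgr2b, the inhibitory receptor, was at 29.1, 93.96 and 60.3 CPM in ICH, against 3.85, 5.38 and 7.15 CPM in sham (log2 fold change 3.48, standard error 0.47, adjusted p = 0.0221). The chains Fcer1g and Tyrobp rose by 2.51 and 2.303 on the log2 scale. Toll-like receptors rose in 6 of 8 tested genes, led by Tlr2, which senses bacterial lipoproteins. Tlr2 was at 15.1, 64.8 and 25.9 CPM in ICH, against 1.61, 1.76 and 4.05 CPM in sham (log2 fold change 3.83, standard error 0.66, adjusted p = 0.0245). It was followed by Tlr13 (2.89), Tlr1 (2.75) and the coreceptor Cd14 (2.47). Tlr4, the receptor linked to heme and endotoxin, lay under the level filter, at 0.683, 5.99 and 4.36 CPM in ICH, against 0.887, 1.18 and 1.45 CPM in sham.

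Of 8 tested C-type lectin receptors 5 rose. Clec4d, a receptor for fungal and mycobacterial glycolipids, was at 5.41, 10.7 and 6.88 CPM in ICH, against 0, 0.0666 and 0.154 CPM in sham (log2 fold change 6.697, standard error 0.82, adjusted p = 0.0214). Clec4n, dectin-2, was at 5.57, 9.04 and 9.24 CPM in ICH, against 0, 0.316 and 0.124 CPM in sham (log2 fold change 5.79, standard error 0.92, adjusted p = 0.0226). Clec7a, dectin-1, rose by 4.77 on the log2 scale and Clec4a1 by 2.93. The subunits of the phagocyte NADPH oxidase, which makes superoxide, rose in 6 of 6 genes. Its membrane core Cybb was at 6.43, 11.1 and 8.15 CPM in ICH, against 0, 0.316 and 0.293 CPM in sham (log2 fold change 5.41, standard error 0.91, adjusted p = 0.0234). Rac2, Ncf4 and Cyba followed (2.75, 2.56 and 2.56).

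Scavenger receptors split into risers and a faller. Cd36, which takes up oxidized lipid and red cells, was at 7.09, 18.5 and 17.9 CPM in ICH, against 0.624, 0.499 and 0.803 CPM in sham (log2 fold change 4.49, standard error 0.45, adjusted p = 0.02096). Msr1, another receptor for modified lipoproteins, was at 10.1, 31.3 and 21.5 CPM in ICH, against 0, 0.716 and 1.34 CPM in sham (log2 fold change 4.94, standard error 1.13, adjusted p = 0.0423). Cd68 and Stab1 rose by 2.87 and 2.65 on the log2 scale. Of the receptor kinases that recognize dying cells, Axl rose (0.74), as did their ligand Gas6 (0.47). Mertk was at 38.2, 73.2 and 66.2 CPM in ICH, against 47.3, 57.9 and 51.6 CPM in sham, with overlapping groups. Tyro3 fell and was at 138, 109 and 133 CPM in ICH, against 176, 190.2 and 192 CPM in sham (log2 fold change -0.55, standard error 0.11, adjusted p = 0.03096). In all 6 of 10 tested scavenger and apoptotic cell receptors rose.

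Lysosomal enzymes and membrane proteins rose in 20 of 24 tested genes (median log2 fold change 1.51). Lyz2, the lysozyme of macrophages, was at 200.2, 529 and 443 CPM in ICH, against 7.75, 10.5 and 21.1 CPM in sham (log2 fold change 4.897, standard error 0.54, adjusted p = 0.0214). Gpnmb, a membrane glycoprotein of lipid-laden phagocytes, was at 101, 256 and 195 CPM in ICH, against 2.13, 9.35 and 17.5 CPM in sham (log2 fold change 4.25, standard error 0.77, adjusted p = 0.0271), with sham 1 far below sham 2 and sham 3. The proteases Ctsd and Ctsb were among the 10 most abundant genes that rose. Ctsd was at 2045, 3780 and 3427 CPM in ICH, against 508, 544 and 1018 CPM in sham (log2 fold change 2.16, standard error 0.35, adjusted p = 0.0226). Ctsb was at 1352, 2351 and 2082 CPM in ICH, against 761, 688 and 903 CPM in sham (log2 fold change 1.299, standard error 0.22, adjusted p = 0.0238). Ctsc, which activates proteases of granules, rose by 2.56 on the log2 scale. Atp6v1a, a subunit of the proton pump that most cells use, was at 313, 271 and 255 CPM in ICH, against 328, 323 and 306 CPM in sham. Tfeb, a regulator of lysosomal genes, was at 13.7, 10.2 and 14.2 CPM in ICH, against 11.3, 10.03 and 9.02 CPM in sham. Neither passed. Of lipid genes 8 of 15 rose. Ch25h, which makes 25-hydroxycholesterol, was at 10.3, 31.6 and 12.9 CPM in ICH, against 1.14, 2.41 and 2.95 CPM in sham (log2 fold change 3.08, standard error 0.55, adjusted p = 0.0266). Plin2, the coat of lipid droplets, was at 52.2, 156 and 107 CPM in ICH, against 8.62, 9.98 and 29.1 CPM in sham (log2 fold change 2.72, standard error 0.599, adjusted p = 0.0385). Abca1, the cholesterol exporter, and Lipa, the lysosomal lipase, rose by 1.42 and 1.15 on the log2 scale. Apoe was at 1087, 1673 and 1658 CPM in ICH, against 1273, 837 and 1182 CPM in sham and overlapped between the groups.

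The promoter of Ctsd is shown because it carries the palindrome TCACGTGA, the core of the lysosomal CLEAR element that Tfeb binds, which was searched on both strands in the 250 bases before the start of each gene in RefSeq. It was found in 3 of 19 lysosomal genes with a promoter entry (Ctsd and Ctsa, which rose, and Atp6v1a, which did not) and in 1.69% of the promoters of all 11270 tested genes with an entry. The 130 bases before the start (GRCm38.p6, chr7:142387828-142387957, minus strand) have the element in capitals.
Ctsd: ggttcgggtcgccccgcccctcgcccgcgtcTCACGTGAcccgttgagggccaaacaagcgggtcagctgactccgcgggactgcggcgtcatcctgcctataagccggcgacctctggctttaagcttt

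Microglial states overlapped. Of 20 genes of disease-associated microglia 16 rose, with Clec7a, Gpnmb and Spp1 leading. Lgals3, galectin-3, had a log2 fold change of 3.82 at 56.2, 89.02 and 113 CPM in ICH, against 0.665, 3.54 and 14.2 CPM in sham and did not pass (adjusted p = 0.0556), with sham 1 at the bottom and sham 3 far above it. Of 15 genes of resting microglia 6 rose and none fell. Fcrls, specific to resident microglia in the mouse, was at 113, 306 and 272 CPM in ICH, against 26.5, 32.2 and 67.7 CPM in sham (log2 fold change 2.45, standard error 0.49, adjusted p = 0.0321). Olfml3 and Cx3cr1 rose by 1.84 and 1.57 on the log2 scale. The resting marker Tmem119 was at 43.7, 72.6 and 75.3 CPM in ICH, against 29.8, 29.3 and 46.9 CPM in sham. The purine receptor P2ry12 was at 38.1, 19.9 and 27.3 CPM in ICH, against 21.7, 23.1 and 26.5 CPM in sham. Neither passed (adjusted p = 0.0898 and 0.514).

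Some genes of alternatively activated and recruited macrophages were among the largest rises, and others of the same list were not higher. Arg1, arginase, which competes with nitric oxide synthase for arginine, was at 6.56, 105 and 56.99 CPM in ICH, against 0.166, 0.0832 and 0.448 CPM in sham (log2 fold change 7.903, standard error 1.23, adjusted p = 0.0226), and ICH 1 lay far below the other ICH libraries. Chil3, a lectin of infiltrating monocytes, was at 2.33, 10.7 and 5.31 CPM in ICH, against 0, 0 and 0 CPM in sham, which makes it at least 116-fold higher in ICH, counting 3 fragments over the sham group as its floor (adjusted p = 0.0226). Of the 7 tested genes of alternative activation 5 rose, F13a1, Il4ra and Tgm2 included (3.73, 2.42 and 1.901). As Arg1 and Chil3 passed the level filter through ICH alone, this count is no support for a rise of the list. The mannose receptor Mrc1 was at 2.497, 7.36 and 5.76 CPM in ICH, against 3.51, 1.45 and 1.78 CPM in sham (adjusted p = 0.161). Cd163 had a log2 fold change of -0.36 and did not pass either. The other members lay under the level filter. Pparg was at 1.08, 1.05 and 0.545 CPM in ICH, against 1.26, 0.865 and 1.08 CPM in sham. Retnla and Ear2 were at or near 0. Ms4a7 was at 2.28, 6.55 and 5.77 CPM in ICH, against 0.125, 0 and 0.185 CPM in sham. Apoc2, a cofactor of lipoprotein lipase, was at 4.53, 15.8 and 14.1 CPM in ICH, against 0, 0 and 0 CPM in sham, at least 213-fold higher in ICH (adjusted p = 0.0216). Cd300lb, an activating receptor for lipids of dying cells, was at least 79.9-fold higher, with 2.41, 6.099 and 4.43 CPM in ICH, against 0, 0 and 0 CPM in sham.

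Markers of incoming leukocytes were present at low levels. Of 9 monocyte genes 6 passed the level filter and 5 rose, and as F10 and Chil3 passed it through ICH alone, the count is no support for a rise of the list. F10, coagulation factor X, was at 1.81, 7.03 and 5.18 CPM in ICH, against 0, 0 and 0.232 CPM in sham (log2 fold change 5.896, standard error 1.23, adjusted p = 0.0345). Ms4a6c was at 5.95, 22.9 and 11.2 CPM in ICH, against 0.513, 0.433 and 0.633 CPM in sham (log2 fold change 4.66, standard error 0.55, adjusted p = 0.0214). Ms4a4c had about 2 fragments in sham and a ratio of 78.1 (95% exact interval 21.2 to 650.4). Plac8 had 3.95 and did not pass (adjusted p = 0.0692). Slfn4, a schlafen gene of myeloid cells, was at 2.57, 14.9 and 2.63 CPM in ICH, against 0.0554, 0.0666 and 0 CPM in sham, a ratio of 195.4 (53.7 to 1620). Ccr2, the receptor that brings monocytes in, lay under the level filter at 2.84, 4.14 and 6.29 CPM in ICH, against 0.111, 0.0333 and 0.124 CPM in sham, and was chosen for mention after its values were seen.

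Of 13 neutrophil genes 7 were tested and 4 rose. As S100a8 and Mmp8 passed the level filter through ICH alone, this count is no support for a rise of the list. The granule genes that define the cell were at or near 0. Camp had no count in either group. Ngp was at 0.144, 0.106 and 0 CPM in ICH, against 0, 0 and 0 CPM in sham, and Ly6g was at 0.0718, 0.106 and 0 CPM in ICH, against 0, 0 and 0 CPM in sham. S100a8, which neutrophils carry in quantity, was at 0.413, 10.1 and 1.21 CPM in ICH, against 0.0693, 0 and 0 CPM in sham, a ratio of 234.7 with a 95% exact interval of 41.7 to 9310 (adjusted p = 0.0454). Mmp8, neutrophil collagenase, was at 0.8802, 4.82 and 3.64 CPM in ICH, against 0, 0 and 0.124 CPM in sham, a ratio of 87.6 (23.9 to 729.4). S100a9, its partner, was at 0.575, 20.7 and 1.62 CPM in ICH, against 0, 0.266 and 0 CPM in sham and did not pass (adjusted p = 0.0765), and ICH 2 held most of the counts of both. Csf3r, the receptor of Csf3, rose by 1.79 on the log2 scale. Lcn2, which astrocytes also make, was at 53.2, 262 and 137 CPM in ICH, against 1.4, 3.96 and 5.41 CPM in sham (log2 fold change 5.396, standard error 0.77, adjusted p = 0.0223). T and NK cell genes were scarce, with 3 of 12 tested. EdgeR called 0 of them, 1 had an unadjusted p under 0.05, and DESeq2 called 1 lower. Trac and Trbc2, constant regions of the T cell receptor, and Cd4 had log2 fold changes of 1.21, 0.697 and -0.71, and Cd3e was at 0.198, 0 and 0.249 CPM in ICH, against 0.0277, 0.0666 and 0 CPM in sham. Of 6 B cell genes only the heavy chain gene Ighm passed the level filter. It rose and was at 17.96, 20.9 and 25.9 CPM in ICH, against 9.05, 12.1 and 13.9 CPM in sham (log2 fold change 0.89, standard error 0.21, adjusted p = 0.0443). Ms4a1 was at or near 0.

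Genes of antigen presentation rose in both classes. Of 9 tested genes of MHC class II presentation 7 rose. Cd74, the invariant chain, was at 33.4, 61.8 and 82.04 CPM in ICH, against 4.298, 3.31 and 7.42 CPM in sham (log2 fold change 3.56, standard error 0.44, adjusted p = 0.0214). H2-Aa, H2-Eb1 and H2-Ab1, chains of the molecule itself, rose with log2 fold changes of 3.28, 3.13 and 3.07. ICH 3 was the highest library for Cd74, H2-Aa and H2-Eb1, unlike for most genes above. Of 14 genes of class I presentation 7 rose. H2-K1 was at 67.2, 131 and 88.3 CPM in ICH, against 30.7, 20.2 and 27.1 CPM in sham (log2 fold change 1.88, standard error 0.27, adjusted p = 0.0226). B2m, the light chain, was at 218, 324 and 326 CPM in ICH, against 116, 79.02 and 107 CPM in sham (log2 fold change 1.52, standard error 0.21, adjusted p = 0.0221). The immunoproteasome subunit Psmb9 and H2-D1 rose by 2.08 and 1.59 on the log2 scale. H2-Q4 had 1.87 and did not pass (adjusted p = 0.05302). Class I genes of this cluster are near-identical in places and may share reads. Of 25 subunits of the constitutive proteasome edgeR called 0, with 2 at an unadjusted p under 0.05, and DESeq2 called 1.

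Interferon-induced genes rose in 17 of 26. Ifi27l2a was at 14.3, 12.7 and 16.4 CPM in ICH, against 0.762, 0.666 and 3.14 CPM in sham (log2 fold change 3.25, standard error 0.62, adjusted p = 0.0295). Ifit3, which binds viral RNA in complex with its relatives, was at 67.7, 136 and 56.2 CPM in ICH, against 14.5, 13.3 and 19.2 CPM in sham (log2 fold change 2.47, standard error 0.36, adjusted p = 0.0226). Isg15, a ubiquitin-like modifier, was at 12.9, 28.2 and 8.67 CPM in ICH, against 3.22, 1.48 and 3.72 CPM in sham (log2 fold change 2.56, standard error 0.54, adjusted p = 0.0348). The antiviral proteins Ifit1 and Rsad2 had log2 fold changes of 2.59 and 2.66, and Rsad2 did not pass (adjusted p = 0.0791), with 9.57, 27.99 and 6.46 CPM in ICH, against 3.83, 0.599 and 2.53 CPM in sham. Irf7 and Irf9, which switch these genes on, rose by 2.19 and 0.99 on the log2 scale. Stat2, a carrier of the signal, was at 18.2, 30.5 and 23.7 CPM in ICH, against 18.5, 18.9 and 18.3 CPM in sham with overlapping groups.

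The interferon-stimulated response element was searched as GAAA, any 2 bases and GAAA again, on both strands of the same 250 bases. It was present in 9 of 19 interferon-induced genes with a promoter entry, 5 of them among the 11 that rose (Ifit1, Ifit3, Isg15, Oas1a and Bst2), and in 2.96% of all 11270 promoters. The promoters of Isg15 (chr4:156200819-156200948, minus strand) and Ifit3 (chr19:34583399-34583528, plus strand) show how the element lies, in capitals, far from the start in Ifit3 and as overlapping copies in Isg15.
Isg15: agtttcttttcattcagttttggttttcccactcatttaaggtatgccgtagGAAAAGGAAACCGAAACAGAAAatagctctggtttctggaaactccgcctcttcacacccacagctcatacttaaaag
Ifit3: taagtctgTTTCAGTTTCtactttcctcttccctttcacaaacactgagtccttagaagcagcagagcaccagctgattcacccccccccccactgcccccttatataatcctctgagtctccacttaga

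Genes of cell division rose. Of 19 tested mitotic genes 14 rose and none fell (median log2 fold change 2.63). Of 19 tested DNA replication genes 9 rose (median 1.54). Cdk1, the kinase that drives entry into mitosis, was at 6.12, 18.3 and 15.4 CPM in ICH, against 0.596, 1.36 and 2.15 CPM in sham (log2 fold change 3.28, standard error 0.59, adjusted p = 0.0269). Ube2c, which feeds cyclins to the proteasome, was at 7.81, 21.3 and 24.03 CPM in ICH, against 1.08, 1.08 and 3.66 CPM in sham (log2 fold change 3.19, standard error 0.65, adjusted p = 0.0334). Bub1 and Ccnb1 had log2 fold changes of 3.35 and 3.26 and did not pass (adjusted p = 0.07798 and 0.0584). Top2a, the topoisomerase of dividing cells, was at 16.97, 59.1 and 71.9 CPM in ICH, against 2.44, 6.72 and 10.3 CPM in sham, and ICH 2 and ICH 3 lay far above ICH 1. Of the replication genes, Rrm2, a subunit of ribonucleotide reductase, was at 10.2, 42.8 and 42.4 CPM in ICH, against 2.204, 4.06 and 6.84 CPM in sham (log2 fold change 2.87, standard error 0.64, adjusted p = 0.0408). Uhrf1, Tk1 and Mcm3 rose by 2.405, 2.31 and 2.26 on the log2 scale. Mcm4 and Mcm7, of the same helicase as Mcm3, were above sham in every ICH library and did not pass (adjusted p = 0.0649 and 0.0584).

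Mitotic promoters were searched for the cell cycle genes homology region as TTTGAA and for the CCAAT box, both strands, 250 bases. TTTGAA was present in 8 of 16 mitotic genes with an entry, all 8 among the 11 that rose, and in 12.5% of all promoters. CCAAT was present in 14 of 16, 9 of them among the 11 that rose, and in 40.0% of all promoters. Cdk1 (chr10:69352913-69353042, minus strand) and Ube2c (chr2:164769799-164769928, plus strand) are shown with both motifs in capitals, the CCAAT box reading ATTGG on the other strand.
Cdk1: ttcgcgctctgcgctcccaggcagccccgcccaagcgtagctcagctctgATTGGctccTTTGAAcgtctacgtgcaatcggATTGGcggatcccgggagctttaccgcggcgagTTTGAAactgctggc
Ube2c: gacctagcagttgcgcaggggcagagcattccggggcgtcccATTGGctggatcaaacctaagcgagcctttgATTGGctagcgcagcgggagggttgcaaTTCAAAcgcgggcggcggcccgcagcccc

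The p53 targets were mixed. Bax, which permeabilizes mitochondria, and Ccng1 rose by 0.55 and 0.46 on the log2 scale. Zmat3 fell and was at 84.96, 84.5 and 85.5 CPM in ICH, against 106, 101 and 107 CPM in sham (log2 fold change -0.299, standard error 0.07, adjusted p = 0.0448). Cdkn1a, the cell cycle inhibitor, was at 25.3, 89.1 and 49.2 CPM in ICH, against 44.3, 42.7 and 32.98 CPM in sham, with overlapping groups. The death genes Pmaip1 and Bbc3 had 0.72 and 0.62, and neither passed (adjusted p = 0.104 and 0.06005). Fas, the death receptor, had 1.29 and did not pass (adjusted p = 0.0686).

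Astrocyte genes of the reactive state rose in 13 of 19. Gfap, the intermediate filament of astrocytes, was the most abundant of all genes that rose, at 1978, 4304 and 4241 CPM in ICH, against 319.8, 439.6 and 919 CPM in sham (log2 fold change 2.65, standard error 0.48, adjusted p = 0.0271). Serpina3n, a secreted protease inhibitor, was at 440.5, 1253 and 915 CPM in ICH, against 22.8, 36.99 and 110.1 CPM in sham (log2 fold change 3.94, standard error 0.702, adjusted p = 0.0262). Vim, the filament shared with macrophages and vessels, was at 287, 629 and 791 CPM in ICH, against 41.7, 50.4 and 104 CPM in sham (log2 fold change 3.12, standard error 0.497, adjusted p = 0.0226). Steap4, a metalloreductase, was at 7.796, 98.1 and 18.5 CPM in ICH, against 0.776, 0.632 and 1.498 CPM in sham (log2 fold change 5.42, standard error 1.06, adjusted p = 0.0307), with ICH 2 more than 5 times ICH 3. Ptx3 and Timp1 had log2 fold changes of 4.202 and 4.19 and did not pass (adjusted p = 0.0897 and 0.0528). Of 18 genes of resting astrocytes 3 rose. The water channel Aqp4 was at 276, 429 and 416 CPM in ICH, against 167, 118 and 177 CPM in sham (log2 fold change 1.28, standard error 0.22, adjusted p = 0.0249). The transcription factor Sox9 and the folate enzyme Aldh1l1 rose by 1.13 and 0.86 on the log2 scale. The glutamate transporter Slc1a2 was at 1532, 1440 and 1574 CPM in ICH, against 1349, 1741 and 1575 CPM in sham. Glutamine synthetase Glul was at 1608, 2048 and 1656 CPM in ICH, against 1948, 1867 and 1829 CPM in sham. Both overlapped between the groups. Atp1b2, a subunit of the sodium pump, had 0.53 and did not pass (adjusted p = 0.05903). Of 15 S100 and annexin genes, calcium-dependent partners of the membrane and cytoskeleton, 12 rose, S100a11 (3.16), S100a4 (2.95), Anxa2 (2.49) and Anxa1 (1.98) with the largest folds. The actin genes of motile cells rose in 13 of 20, Capg, Myo1f and Lcp1 by 3.05, 2.49 and 2.48 on the log2 scale after Vim.

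Matrix genes rose on the side of both building and cutting. Thbs1, thrombospondin of platelets and scar, was at 20.6, 119.6 and 59.2 CPM in ICH, against 3.52, 2.61 and 4.495 CPM in sham (log2 fold change 4.23, standard error 0.65, adjusted p = 0.0226). Tgfbi, an adhesion protein induced by TGF-beta, was at 47.2, 82.2 and 75.7 CPM in ICH, against 6.696, 7.52 and 10.7 CPM in sham (log2 fold change 3.04, standard error 0.28, adjusted p = 0.0204). The collagen crosslinker Loxl2 and fibronectin Fn1 rose by 3.26 and 1.899 on the log2 scale. In all 9 of 18 matrix glycoproteins and crosslinkers and 6 of 16 collagens rose. Col3a1 of fibrous matrix was at 8.68, 18.7 and 20.5 CPM in ICH, against 4.09, 3.08 and 4.59 CPM in sham (log2 fold change 2.02, standard error 0.35, adjusted p = 0.0249). Col4a1 of basement membrane was at 60.2, 133 and 109 CPM in ICH, against 32.3, 26.4 and 34.2 CPM in sham (log2 fold change 1.7, standard error 0.29, adjusted p = 0.0234). Col8a1 and Col5a2 had log2 fold changes of 1.47 and 1.36 and did not pass (adjusted p = 0.116 and 0.05001). Among matrix proteases and inhibitors 7 of 18 rose. As Mmp8 and Mmp12 passed the level filter through ICH alone, this count is no support for a rise of the list. Mmp12, the elastase of macrophages, was at 6.02, 37.8 and 22.6 CPM in ICH, against 0.0554, 0.133 and 0.402 CPM in sham (log2 fold change 6.82, standard error 0.96, adjusted p = 0.0222). Mmp3, stromelysin, was at 0.539, 37.3 and 1.49 CPM in ICH, against 0.0554, 0 and 0 CPM in sham and missed the threshold (adjusted p = 0.05005), its counts lying almost wholly in ICH 2. Timp1, the inhibitor, and Mmp9, the gelatinase linked to barrier damage, did not pass either, Mmp9 being at 1.42, 5.64 and 3.47 CPM in ICH, against 1.36, 1.03 and 0.726 CPM in sham (adjusted p = 0.0789). Mmp24, a membrane protease of neurons, fell and was at 38.8, 30.6 and 33.4 CPM in ICH, against 48.9, 48.8 and 51.8 CPM in sham (log2 fold change -0.54, standard error 0.11, adjusted p = 0.0344).

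Of 14 tested genes of coagulation and fibrinolysis 9 rose. As F10 passed the level filter through ICH alone, this count is no support for a rise of the list. Plau, the plasminogen activator of urokinase type, and its receptor Plaur rose by 1.92 and 1.77 on the log2 scale, and Procr, the receptor of protein C, by 2.15, after F10 and F13a1. Plat, tissue plasminogen activator, was at 43.1, 49.7 and 52.2 CPM in ICH, against 53.6, 43.05 and 48 CPM in sham. F3, tissue factor, was at 64.05, 105 and 98.8 CPM in ICH, against 84.97, 75.4 and 77.9 CPM in sham. Both overlapped between the groups.

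Of 17 endothelial and barrier genes 5 rose. Vwf, the platelet-binding protein of endothelium, was at 63.4, 92.7 and 83.8 CPM in ICH, against 23.96, 25.99 and 21.4 CPM in sham (log2 fold change 1.75, standard error 0.16, adjusted p = 0.0204). Cldn5, the claudin of the blood-brain barrier, was at 50.03, 55.6 and 64.8 CPM in ICH, against 26.3, 21.9 and 30.7 CPM in sham (log2 fold change 1.11, standard error 0.16, adjusted p = 0.0223). Pecam1, of endothelial junctions, rose by 0.82 on the log2 scale, and the cadherin Cdh5 had 0.72 and did not pass (adjusted p = 0.07897). Mfsd2a, a barrier transporter, was at 21.4, 43.9 and 33.7 CPM in ICH, against 45.7, 36.8 and 39.4 CPM in sham, with overlapping groups. Selp, P-selectin, on which leukocytes roll, was at 3.02, 13.7 and 5.74 CPM in ICH, against 0.0416, 0.117 and 0.216 CPM in sham (log2 fold change 5.903, standard error 0.81, adjusted p = 0.0221). Lrg1 rose by 3.44 on the log2 scale. Icam1 and Aplnr had 1.95 and 3.14 and did not pass (adjusted p = 0.0905 and 0.0846). Of mural genes, Tagln of smooth muscle was at 65.3, 63.1 and 47.4 CPM in ICH, against 10.4, 12.4 and 14.9 CPM in sham (log2 fold change 2.22, standard error 0.19, adjusted p = 0.0204), with all ICH libraries more than 3 times any sham library. Myl9, Pdgfrb and Rgs5 rose by 0.74, 0.53 and 0.41. Des and Anpep had 1.17 and 1.13 and did not pass (adjusted p = 0.0896 and 0.0633). Igfbp2, made by meninges and choroid plexus, was at 113, 133 and 150.1 CPM in ICH, against 31.7, 18.2 and 38.4 CPM in sham (log2 fold change 2.16, standard error 0.28, adjusted p = 0.0216). The part of such tissue in it was not tested either. Lum, Slc6a20a and Dcn of meningeal fibroblasts had 1.36, 1.11 and 1.09 and did not pass (adjusted p = 0.0542, 0.111 and 0.0725).

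Several programs of general stress and metabolism lay near the background. The integrated stress response was split. Atf3 rose and was at 19.8, 35.3 and 19.3 CPM in ICH, against 2.72, 2.995 and 7.46 CPM in sham (log2 fold change 2.498, standard error 0.47, adjusted p = 0.0288). Atf4, its upstream factor, fell and was at 80.9, 75.2 and 65.2 CPM in ICH, against 174, 142 and 179 CPM in sham (log2 fold change -1.16, standard error 0.13, adjusted p = 0.0214). Hspa5, the chaperone of the endoplasmic reticulum, was at 286, 516 and 409.7 CPM in ICH, against 401, 353 and 603 CPM in sham. Trib3 and Atf5 had 0.78 and 0.55 and did not pass (adjusted p = 0.402 and 0.0709). Of heat shock chaperones Hspb8 rose by 1.25 and Hsph1 fell by 0.701 on the log2 scale. The inducible Hspa1a and Hspa1b had -0.71 and -1.07 and Serpinh1, a chaperone of collagen, 0.78, none of them past the threshold (adjusted p = 0.478, 0.312 and 0.148). Of 19 genes of hypoxia and glycolysis Hk2, a hexokinase, and Pdk1 rose (1.91 and 0.55). Slc2a3, the neuronal glucose transporter, fell and was at 121, 111 and 107 CPM in ICH, against 148, 164 and 148 CPM in sham. Egln3 and Hk1 had 0.99 and -0.56 and did not pass (adjusted p = 0.178 and 0.0872). Of 23 genes of cholesterol synthesis edgeR and DESeq2 called 0, with 2 at an unadjusted p under 0.05. Of 16 genes of ribosome biogenesis edgeR called 0, with 4 at an unadjusted p under 0.05, and DESeq2 called 1 higher and 2 lower. Of 30 nuclear genes of the respiratory chain edgeR called 0, with 7 at an unadjusted p under 0.05, and DESeq2 called 5 lower. Of 13 mitochondrially encoded genes both called 0, with 1 at an unadjusted p under 0.05. Of 16 myelin genes Trf alone was called. Mbp, a main protein of myelin, was at 1191, 1195 and 1112 CPM in ICH, against 1617, 1134 and 1130 CPM in sham. Pdgfra of oligodendrocyte precursors rose by 0.43 on the log2 scale. Their proteoglycans Cspg4 and Ptprz1 had 0.55 and 0.39 and did not pass (adjusted p = 0.0504 and 0.05403).

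**Figure D3:**
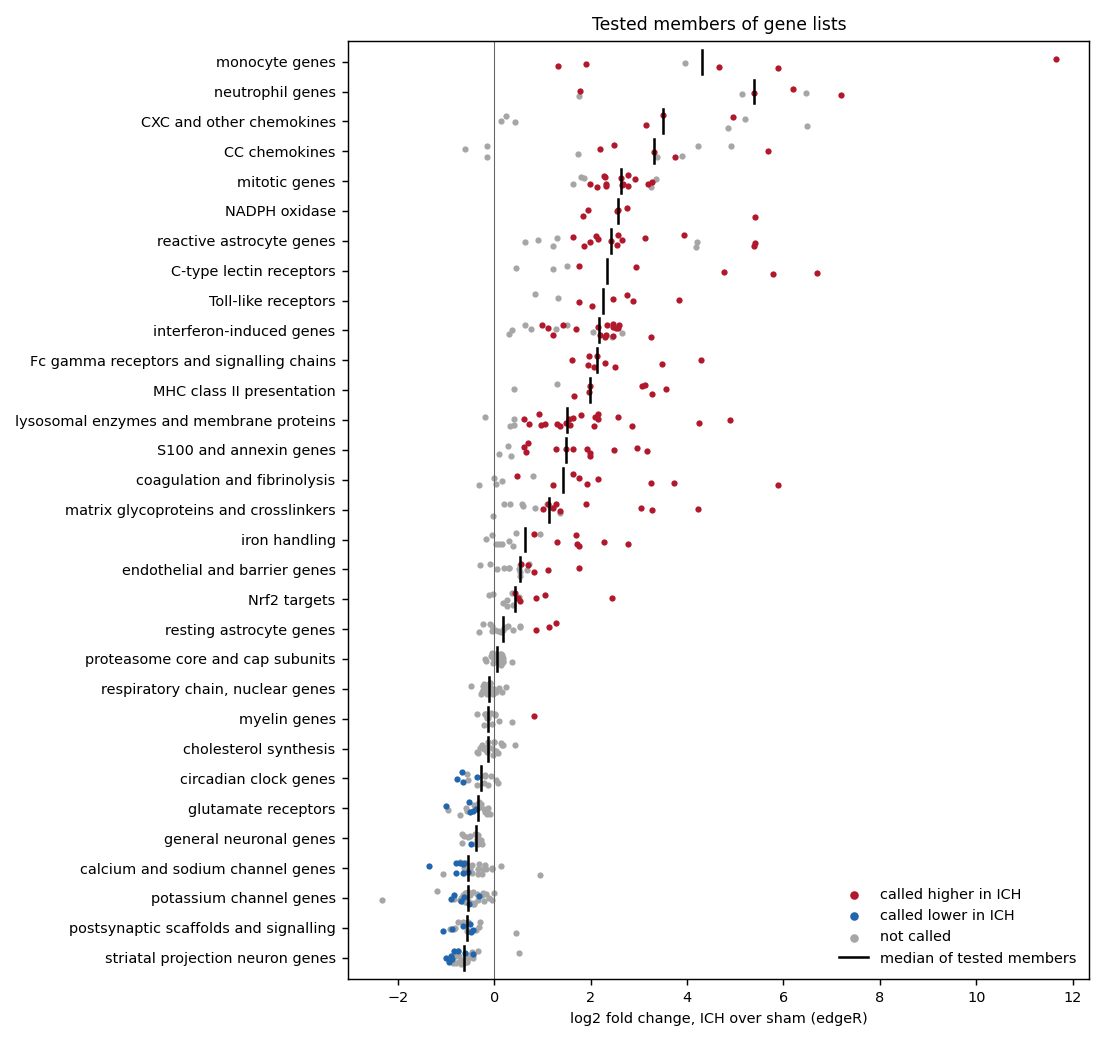
Log2 fold change of ICH over sham (horizontal axis) for the tested members of 31 gene lists, 1 point per gene, red for genes called higher, blue for genes called lower, gray for genes not called, with a black bar at each list's median. Lists of leukocytes and reactive glia have medians above 2, lists of metabolism lie around 0, and lists of neurons have medians down to -0.64. Genes near 0 in sham were tested only where they were high in ICH, which favours high medians for lists that hold such genes, as those of leukocytes do.

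Some neuronal genes fell, by small amounts. Genes of striatal projection neurons summed to 7162, 5879 and 8736 CPM in ICH, against 8725, 12275 and 11816 CPM in sham. Of 29 such genes 8 fell and none rose. Their median log2 fold change was -0.64, and DESeq2 called 19 of the 29 lower. Scn4b, a sodium channel subunit enriched in striatum, was at 624, 482 and 765 CPM in ICH, against 948, 1199 and 1174 CPM in sham (log2 fold change -0.83, standard error 0.19, adjusted p = 0.0406). Actn2, an actin crosslinker of spines, was at 45.9, 41.3 and 57.5 CPM in ICH, against 77.1, 109.5 and 103 CPM in sham (log2 fold change -1.001, standard error 0.18, adjusted p = 0.0259). Rxrg, a retinoid receptor, was at 51.8, 39.9 and 66.9 CPM in ICH, against 82.8, 103 and 118 CPM in sham (log2 fold change -0.94, standard error 0.21, adjusted p = 0.04201). Tac1, the precursor of substance P in neurons of the direct pathway, was at 66.2, 58.3 and 85.4 CPM in ICH, against 101, 148 and 139.9 CPM in sham (log2 fold change -0.89, standard error 0.19, adjusted p = 0.0372). Ido1 and Rasgrp2 fell by 0.88 and 0.75 on the log2 scale. Drd1 and Drd2, the dopamine receptors of the direct and indirect pathways, had -0.801 and -0.57 and did not pass (adjusted p = 0.08504 and 0.0684). Pde10a, a phosphodiesterase of the same cells, was at 388, 426 and 549 CPM in ICH, against 237, 392 and 327 CPM in sham, with overlapping groups. Genes of neighbouring regions had negative medians too, -0.49 for 9 tested cortical and -0.53 for 7 tested thalamic genes, of which edgeR called 0. Neurod6 of cortex was at 0.862, 0.225 and 1.52 CPM in ICH, against 2.29, 7.37 and 1.097 CPM in sham. The thalamic gene Prkcd was at 306, 197 and 158 CPM in ICH, against 402, 379.5 and 362 CPM in sham. Whether the libraries held unequal parts of these regions, and their part in these falls, was not tested.

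Of 24 glutamate receptor genes 5 fell, and DESeq2 called 11 lower. Gria3 of the AMPA class was at 36.01, 32.5 and 41.3 CPM in ICH, against 98.2, 69.6 and 53.3 CPM in sham (log2 fold change -1.01, standard error 0.23, adjusted p = 0.0406). Grin1, the obligatory subunit of the NMDA receptor, was at 406, 319.5 and 342 CPM in ICH, against 531, 493 and 485 CPM in sham (log2 fold change -0.5, standard error 0.11, adjusted p = 0.0385). Grik3, Grin2c and Grid1 fell by 0.53, 0.43 and 0.38 on the log2 scale, whereas Grin2b had -0.72 and did not pass (adjusted p = 0.0524). Of 19 postsynaptic scaffolds and signalling genes 6 fell, and DESeq2 called 16 lower and 1 higher. Shank3, a master scaffold of striatal synapses, was at 285, 229.9 and 259 CPM in ICH, against 436, 488 and 490.3 CPM in sham (log2 fold change -0.87, standard error 0.11, adjusted p = 0.0214). Dlg2, PSD-93, was at 139, 220.1 and 129.8 CPM in ICH, against 288, 374 and 352 CPM in sham (log2 fold change -1.05, standard error 0.22, adjusted p = 0.0351). Homer1 and Dlgap2 had -0.92 and -0.84 and did not pass (adjusted p = 0.0936 and 0.108). Dlg4, PSD-95, fell by 0.48. Shank2, unlike its relative, had 0.44 (adjusted p = 0.0845), with 101, 98.9 and 89.4 CPM in ICH, against 58.1, 73.2 and 81.6 CPM in sham.

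Of 19 GABA genes 3 fell, and DESeq2 called 10 lower. Gad1, which makes GABA, was at 436, 398 and 365 CPM in ICH, against 607, 614 and 587 CPM in sham (log2 fold change -0.59, standard error 0.09, adjusted p = 0.0226). Gabrd, a receptor subunit outside synapses, was at 84.5, 63.8 and 77.5 CPM in ICH, against 115, 119 and 132 CPM in sham (log2 fold change -0.7, standard error 0.12, adjusted p = 0.0255). Gabbr1, of the metabotropic receptor, fell by 0.41. Gabrb2 and Gabra4 had -0.75 and -0.69 and did not pass (adjusted p = 0.149 and 0.0585). Gad2, the second synthesizing enzyme, was at 291, 290.4 and 273 CPM in ICH, against 316, 347 and 331 CPM in sham (adjusted p = 0.1196). Of 12 tested interneuron genes Nos1, which makes nitric oxide, alone fell and was at 15.7, 14.5 and 16.2 CPM in ICH, against 23.8, 30.9 and 21.2 CPM in sham (log2 fold change -0.71, standard error 0.16, adjusted p = 0.0406). Sst was at 135, 96.9 and 129 CPM in ICH, against 157, 132 and 161 CPM in sham. Chat was at 15.4, 13.9 and 22.4 CPM in ICH, against 18.9, 23.4 and 22.8 CPM in sham. Th, Cck and Pvalb had -0.76, -0.75 and -0.47 and did not pass (adjusted p = 0.433, 0.239 and 0.181). Of 16 general neuronal genes Rbfox3, the NeuN antigen, alone fell and was at 157, 123 and 138 CPM in ICH, against 192, 199.7 and 193 CPM in sham (log2 fold change -0.48, standard error 0.104, adjusted p = 0.0368). All 16 had negative log2 fold changes, from -0.66 to -0.24, and DESeq2 called 11 of them lower. The neurofilaments Nefm, Nefh and Nefl had the lowest, -0.66, -0.66 and -0.62, and did not pass (adjusted p = 0.102, 0.112 and 0.0918).

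Of 35 potassium channel genes 6 fell, and DESeq2 called 16 lower. Kcnab1, an accessory subunit, was at 143, 112 and 166 CPM in ICH, against 221, 274 and 262 CPM in sham (log2 fold change -0.84, standard error 0.16, adjusted p = 0.0289). Kcnq3 and Kcna1 fell by 0.69 and 0.64 on the log2 scale. Kcna2 was at 115, 49.5 and 142 CPM in ICH, against 219, 273 and 204 CPM in sham (adjusted p = 0.0838). Of 29 calcium and sodium channel genes 8 fell, and DESeq2 called 15 lower. Cacna1a, the pore of the presynaptic P/Q channel, was at 81.7, 76.5 and 61.9 CPM in ICH, against 131, 137 and 111 CPM in sham (log2 fold change -0.78, standard error 0.13, adjusted p = 0.0243). Cacna2d3 and Cacna1i fell by 0.804 and 0.62 on the log2 scale. Ryr1, a calcium release channel, was at 21.5, 11.7 and 18.4 CPM in ICH, against 30.6, 57.9 and 42.8 CPM in sham (log2 fold change -1.35, standard error 0.301, adjusted p = 0.0403). Scn3b was at 123, 66.8 and 19.03 CPM in ICH, against 31.2, 39.05 and 37.4 CPM in sham. Scn2b was at 309, 130.3 and 138 CPM in ICH, against 392, 389 and 417 CPM in sham. Neither passed (adjusted p = 0.323 and 0.0897).

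Of 14 circadian genes 4 fell and none rose. Arntl, which encodes the BMAL1 activator, was at 25.2, 21.4 and 22.2 CPM in ICH, against 38.3, 38.6 and 39.95 CPM in sham (log2 fold change -0.76, standard error 0.1, adjusted p = 0.0216). Its repressors fell too. Per1 was at 96.2, 94.5 and 99.9 CPM in ICH, against 139, 149 and 175 CPM in sham (log2 fold change -0.67, standard error 0.102, adjusted p = 0.0226). Per2 was at 40.5, 50.8 and 55.9 CPM in ICH, against 65.8, 81.9 and 82.04 CPM in sham (log2 fold change -0.64, standard error 0.15, adjusted p = 0.0451). Cry2 fell by 0.36 on the log2 scale. Arntl and Per1 normally peak at opposite times of day, and the hour of sampling is not given in the sources used here. Nr1d1, which represses Arntl, had -0.56 and did not pass (adjusted p = 0.0758). Clock, the partner of Arntl, was at 58.3, 58.2 and 49.05 CPM in ICH, against 48.7, 56.04 and 51.7 CPM in sham with overlapping groups. Of 17 immediate early genes, transcribed within minutes of neuronal firing, Egr1 alone fell and was at 189, 96.9 and 140.5 CPM in ICH, against 235, 383 and 434 CPM in sham (log2 fold change -1.302, standard error 0.31, adjusted p = 0.04499). Egr2, Egr4, Nr4a1 and Arc had log2 fold changes of -2.12, -1.404, -1.66 and -1.52 and did not pass (adjusted p = 0.0663, 0.101, 0.0771 and 0.101). Arc was at 104, 31.3 and 53.3 CPM in ICH, against 94.8, 218 and 229.7 CPM in sham, so that sham 1 lay below ICH 1. DESeq2 called 8 of the 17 immediate early genes lower. Of genes of neuronal injury, Sprr1a, induced in regrowing axons, rose and was at 5.08, 8.33 and 5.28 CPM in ICH, against 0.111, 0.316 and 0.5098 CPM in sham (log2 fold change 4.32, standard error 0.55, adjusted p = 0.0216). Jun and Klf6 rose by 0.798 and 0.49 on the log2 scale.

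**Figure D4:**
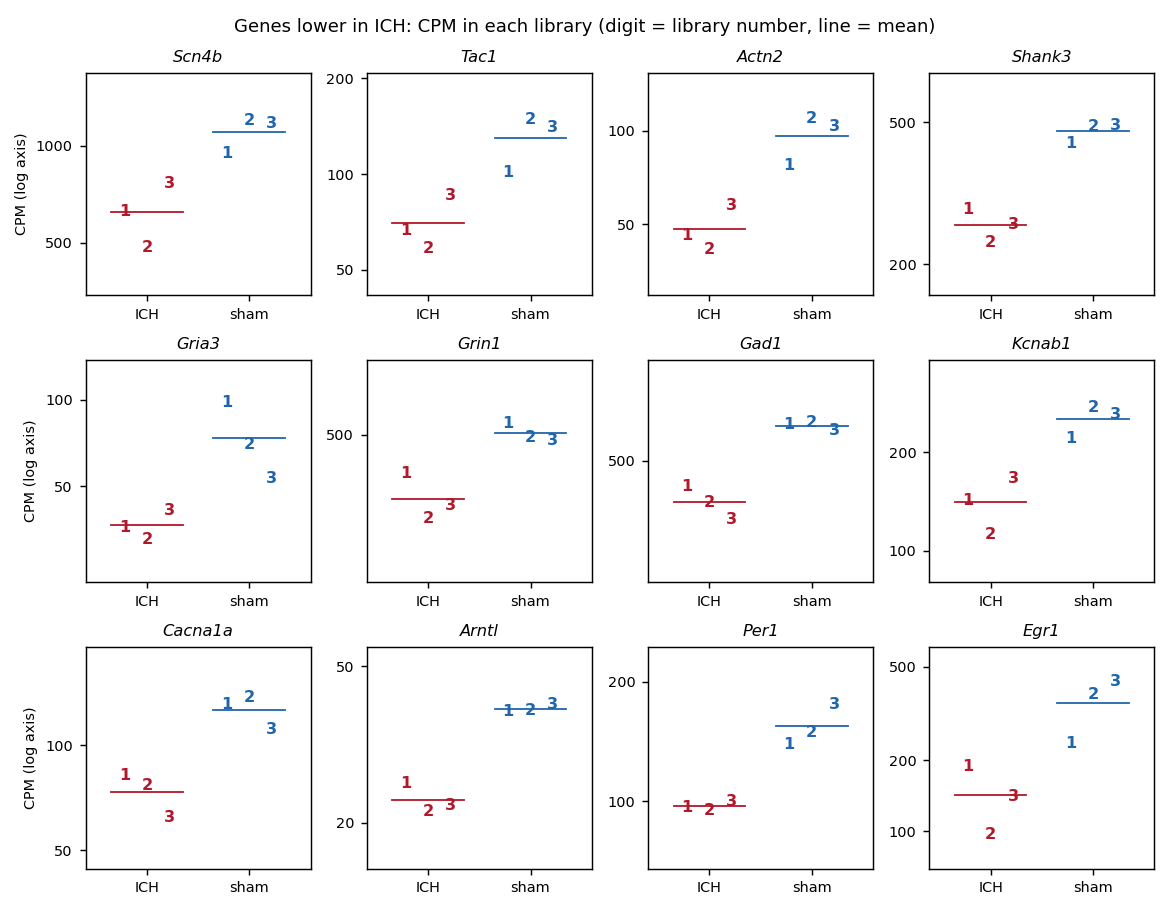
CPM on a logarithmic axis in each library for 12 genes that fell, with ICH left and sham right, the digit giving the library number and the line the group mean. No ICH library reaches a sham library in any panel, and the gap is smaller than for the genes that rose.

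The deepest falls were in genes of other kinds. Vkorc1l1, an enzyme that recycles vitamin K, was at 4.94, 1.86 and 14.2 CPM in ICH, against 47.9, 47.04 and 52.7 CPM in sham (log2 fold change -2.82, standard error 0.67, adjusted p = 0.0456), with the ICH libraries spread widely. Zfp930, a zinc finger gene, was at 0.719, 0.939 and 0.731 CPM in ICH, against 6.78, 7.67 and 3.96 CPM in sham (log2 fold change -2.94, standard error 0.32, adjusted p = 0.0214). Smco3, a small membrane protein gene, was at 1.11, 1.84 and 2.65 CPM in ICH, against 14.1, 8.67 and 14.6 CPM in sham (log2 fold change -2.73, standard error 0.37, adjusted p = 0.0221). Gm10644, a noncoding transcript, was at 0.701, 1.005 and 0.778 CPM in ICH, against 5.68, 4.66 and 4.603 CPM in sham (log2 fold change -2.58, standard error 0.24, adjusted p = 0.0204). Hinfp (-1.73), Opn3, an opsin of brain and fat (-1.43), Thoc2 of RNA export (-1.38), Larp4, which binds poly(A) (-1.37), and Trim66 (-1.36) followed, and Pthlh (-1.25), Gm39043 (-1.25), Gpr63 (-1.21) and Gm3294 (-1.21) closed the 15 lowest. Smco3 overlaps BC049715, Gm10644 overlaps Adgrl1, Hinfp overlaps Gm48604 and Opn3 overlaps Chml on the same build. Gm26920, which overlaps Zfp566 and Zfp82, was at 2.32, 4.15 and 2.29 CPM in ICH, against 0, 0 and 0 CPM in sham, at least 53.5-fold higher in ICH. Without a stated strand setting their reads cannot be told apart. In all 56 of 2790 tested noncoding genes, those without a protein-coding transcript, were called, 50 higher, of which 31 were pseudogenes, and 6 lower. Over all genes tested 1737 of 16414 were called, 1218 higher and 519 lower, so noncoding genes were called less often.

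After Gfap and the cathepsins, the most abundant genes that rose were Trf, Ftl1, Actb, Apod, Tpt1, Rpl4 and Serpina3n. Trf was at 1230, 1338 and 1360 CPM in ICH, against 717, 659 and 829 CPM in sham. Actb of the cytoskeleton was at 706, 861 and 826 CPM in ICH, against 476, 506 and 577 CPM in sham. Apod, a lipocalin of glia, and Tpt1 rose by 0.97 and 0.58 on the log2 scale. Rpl4, a ribosomal protein gene, was at 581, 656 and 632 CPM in ICH, against 509.9, 464 and 488 CPM in sham. Rpl4 had the smallest change of them (log2 fold change 0.36, standard error 0.09, adjusted p = 0.0487). Among those that fell, Map1a of microtubules was at 1207, 1011 and 989.7 CPM in ICH, against 1570, 1592 and 1446 CPM in sham. Kif1a, the motor of synaptic vesicle precursors, was at 1069, 904 and 805 CPM in ICH, against 1371, 1349 and 1249 CPM in sham. Atp2a2, the calcium pump of the endoplasmic reticulum, was at 743, 626 and 577 CPM in ICH, against 1048, 1138 and 1111 CPM in sham (log2 fold change -0.76, standard error 0.12, adjusted p = 0.0226). Pcp4, which tunes calmodulin, was at 654, 387 and 520.2 CPM in ICH, against 872, 839 and 928 CPM in sham (log2 fold change -0.76, standard error 0.19, adjusted p = 0.0498). Sptbn1, Sptan1, Rab6b and Cyfip2 fell by 0.52, 0.47, 0.65 and 0.55 on the log2 scale.

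The libraries of a group were not alike. The mean level of a list, as the mean over its members of log2(CPM + 0.5) minus the sham mean, was 1.22, 3.64 and 2.18 in ICH, against -0.15, 0.04 and 0.11 in sham for neutrophil genes. For CXC and other chemokines it was 1.03, 3.42 and 1.34 in ICH, against 0.09, -0.19 and 0.10 in sham. ICH 2 was the highest for both. These means cover only the members past the level filter, 7 of 13 neutrophil genes and 9 of 14 of these chemokines. S100a8, Mmp8 and Cxcl2 among them passed it through ICH alone. The gap between the groups in these 2 means is therefore no support for a rise of the lists. For mitotic genes the mean level was 1.18, 2.71 and 2.75 in ICH, against -0.52, -0.06 and 0.57 in sham. For reactive astrocyte genes it was 1.78, 3.02 and 2.62 in ICH, against -0.48, -0.14 and 0.62 in sham. In both lists sham 3 was the sham library nearest to ICH. For choroid plexus genes sham 3 was again the nearest and ICH 2 was the lowest ICH library, at 2.48, 0.64 and 1.86 in ICH, against 0.18, -1.23 and 1.04 in sham. Of the 9 tested edgeR called 0, with 5 at an unadjusted p under 0.05, and DESeq2 called 5 higher.

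**Figure D5:**
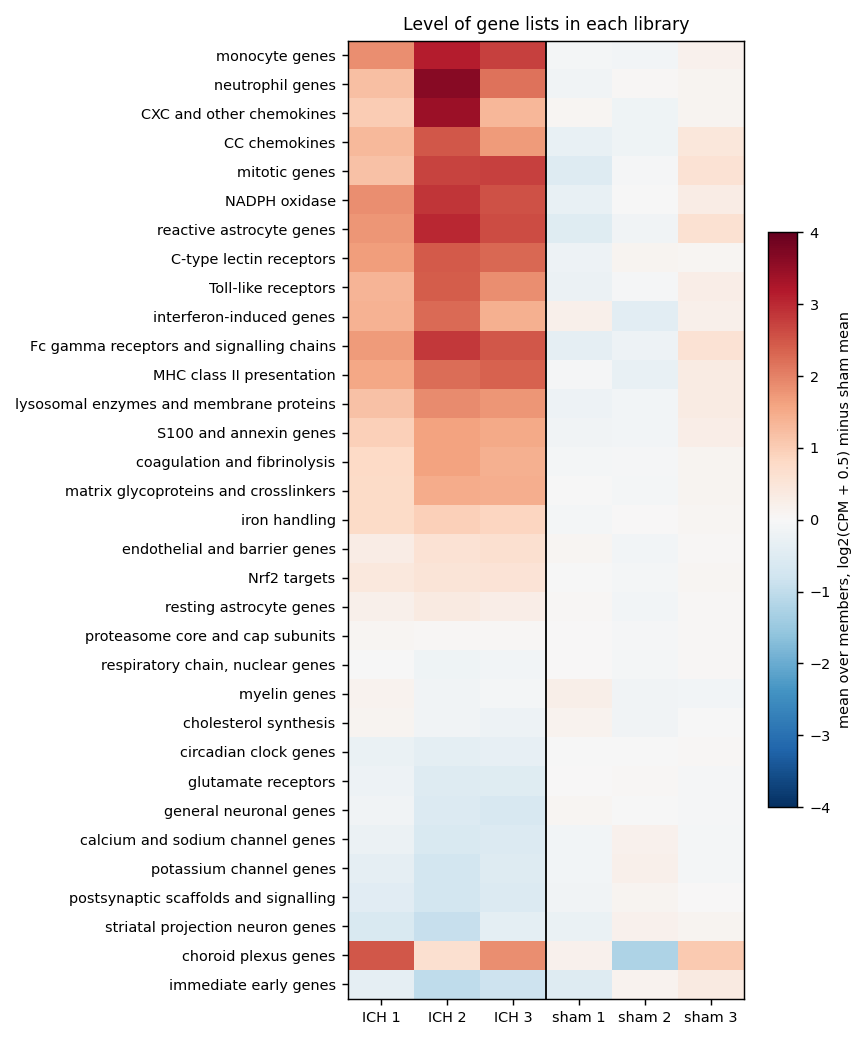
Mean level of 33 gene lists in each library, as log2(CPM + 0.5) minus the mean of the sham libraries, averaged over the tested members of the list, with the 3 ICH libraries left of the 3 sham libraries. ICH 2 is darkest for leukocyte and chemokine lists, sham 3 is warm for glial and mitotic lists, and choroid plexus genes vary within both groups.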

How the data were processed

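Total RNA of mouse brain was sequenced on an Illumina platform, and the authors deposited 1 table of 55401 genes with whole-number counts and FPKM values for each library. The submitters' processing notes name cutadapt 1.9, FastQC 0.10.1, HISAT2 2.0.4, StringTie 1.3.4 and the rat build Rnor_6.0, whereas the deposited gene identifiers and coordinates are those of mouse GRCm38. Neither the strand setting nor the kit is given in the sources used here. Low counts in the deposited table fall on multiples of about 3.72 (3.63 to 3.76 per library), so 1 fragment adds several counts, and 3 fragments over a group (11.1 counts) served as the floor for genes without sham counts. FPKM values listed where the count was 0 were set to 0. A mean FPKM of 0.5 or more was required for a gene to enter the fit.

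Counts were scaled by TMM and tested with edgeR 4.0.16 in R 4.3.3 (quasi-likelihood, ICH 1 to 3 against sham 1 to 3, no covariate, Benjamini-Hochberg adjustment). The comparison was repeated with DESeq2 1.42.0, with limma 3.58.1 on log2(FPKM + 1) and log2(FPKM + 0.1), with other scalings and filters, with all 9 libraries, with the replicate number as a block and without each library. The scripts were tested on simulated data of 16414 genes, of which 100 were changed 2-fold and 100 were changed 4-fold. EdgeR called 52 and 89 of these, with 4 false calls. DESeq2 called 55 and 90 of these, with 33 false calls, so its calls are the less strict. Genes and lists were chosen with earlier results of these data known. Named are, outside complement, the 15 called genes without overlap at either end of the log2 fold changes, the 10 most abundant genes called in each direction, and of each list described with calls the 4 largest changes, any member called against the others and members whose role is needed. Some items that this rule names are not reported here. Promoters are from RefSeq on GRCm38.p6. The 3 Laminaria libraries entered only the fit of all 9 libraries, where they add to the estimate of the spread, and were not compared with the other groups. The labels give them days 4, 5 and 6 and all other libraries day 3. Whether these day labels are correct could not be checked, and as labelled, day and agent cannot be told apart.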

Additional observations from a re-analysis of the deposited data

Results flagged for a closer look

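The libraries of ICH mice given Laminaria were compared with no other group. Of the genes named for their rank in fold change or abundance, 3 had no sham count and counts in every Laminaria library. Other genes without sham counts are not listed here. Levels here are CPM scaled to the total counts of the tested genes, for the Laminaria libraries labelled day 4, 5 and 6. Apoc2 was at 3.45, 1.603 and 12.8 CPM, Chil3 at 2.28, 1.89 and 21.8 CPM and Cd300lb at 1.95, 1.93 and 4.45 CPM. On the same scale the sham libraries were at 0 for each of the 3 genes.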

How the results depend on the processing

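The 1202 genes that rose and the 518 that fell outside complement kept their direction under each of the 24 alternatives that tested them. With the filter raised to 1 FPKM, 160 of the 1202 and 7 of the 518 were not tested. The ICH and sham libraries of these genes did not overlap, so the alternatives could hardly turn a direction. The kept directions are therefore no support for the calls. Over all genes tested edgeR called 1218 higher and 519 lower. DESeq2 called 2051 higher and 1496 lower, 57.8% of them higher, against 70.1% with edgeR, and all 1202 and 518 were among them. The lower calls numbered 317 with all 9 libraries in 1 fit, 275 with limma on log2(FPKM + 1) and 295 on log2(FPKM + 0.1), where 80.8% and 81.1% of calls were higher. Without 1 library edgeR called 0 to 1731 higher and 0 to 1010 lower, as the library left out changed. DESeq2 on 5 libraries, added after seeing the data, called 2618 higher and 2267 lower without ICH 1, 1505 higher and 1082 lower without ICH 2, 1470 higher and 1180 lower without ICH 3, 1843 higher and 1329 lower without sham 1, 1773 higher and 1165 lower without sham 2, and 1889 higher and 1037 lower without sham 3. Why edgeR lost its calls was not tested. With the replicate number as a block, 696 genes were higher and 143 lower. Libraries of the same number deviated from their group means with correlations of 0.112, -0.024 and 0.087, and ICH 2 correlated best with sham 3. The numbers were not treated as pairs, and whether same-numbered libraries were handled together is not given in the sources used here. Of named genes without a call 3 turned sign. The log2 fold change of P2ry12 was -0.0225 with DESeq2 without ICH 1 (-0.00877 to 0.43 with edgeR without 1 library), the log2 fold change of Trbc2 -0.00489 without ICH 3 (-0.00829 to 1.05) and the log2 fold change of Th 0.0723 without sham 1 (-1.15 to 0.0953). Of 71 lists, 66 kept the sign of their median under all alternatives. The medians of growth factors, alternative activation and monocyte genes were the same (0.60, 2.42 and 4.31) with genes without sham counts at their bound. Each of these lists held 1 such gene, and its bound still lay above the median. The medians could therefore not move, and the comparison shows nothing on how firm they are. Genes with few sham fragments are limited by depth.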

Other observations

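The 2 genes with the deepest falls differed in the libraries of ICH mice given Laminaria, for which day, as labelled, and agent cannot be told apart and no test was run. Levels here are again CPM scaled to the total counts of the tested genes. Vkorc1l1 was at 41.8, 39.3 and 45.9 CPM in the Laminaria libraries, at 4.96, 1.899 and 14.4 CPM in ICH and at 47.2, 46.7 and 52.0 CPM in sham. Zfp930 was at 8.02, 5.94 and 5.27 CPM in the Laminaria libraries, at 0.721, 0.956 and 0.742 CPM in ICH and at 6.67, 7.62 and 3.90 CPM in sham.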
